A study of Mus musculus with 40 samples.

Results

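The medullary thick ascending limb (MTAL) nuclei described here came from the right kidneys of 4 mice, and they were the 1626 nuclei, of 16500 in all, whose deposited class name begins with MTAL. The class was taken from the coarser form of the authors' annotation. All mice were male C57BL/6 animals of 8 to 12 weeks, for which the labels give no transgene or mutation. In 2 mice the left kidney had been taken out, an operation called unilateral nephrectomy (UNx), and 2 mice had a sham operation that left it in place. All 4 were given isoflurane, saline and buprenorphine according to the design text. Nuclei were taken 24 h after surgery from a mid cross-section of the kidney and sorted by a DNA stain, so each class holds only the part of the nephron that lay in that section. The labels place 1 sham and 1 UNx mouse in batch 3 and the other pair in batch 4. Whole right kidneys of 6 sham and 6 UNx mice, all others than these, had been profiled by bulk RNA-seq at the same time, all in batch 1. The question set by this design is how gene expression in the MTAL of the remaining kidney differed from that of sham kidneys 1 day after the loss of the other.

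The thick ascending limb (TAL) reabsorbs salt without water. Sodium, potassium and chloride enter its cells through the cotransporter NKCC2 (gene Slc12a1), the target of loop diuretics such as furosemide, potassium returns to the lumen through the channel ROMK (Kcnj1), and chloride leaves on the blood side through CLC-K channels. In the medulla this transport builds the osmotic gradient that allows urine to be concentrated, and it makes the MTAL one of the kidney's most oxygen-demanding segments. The TAL also secretes uromodulin (Umod), the most abundant protein of normal urine, and makes pro-EGF (Egf). In its medullary part sodium passes between the cells through the tight junction protein claudin-10 (Cldn10), whereas in its cortical part calcium and magnesium pass through claudin-16 and claudin-19. A kidney left alone after UNx enlarges and filters more, so that its tubules are offered more salt.

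Throughout, values of the 4 mice are given in 1 order: sham and UNx of batch 3, then sham and UNx of batch 4. The MTAL nuclei numbered 534, 545, 193 and 354. They held 3.42, 3.75, 1.85 and 2.87 M (times 1000000) UMIs (unique molecular identifiers, each standing for 1 captured RNA molecule). The median nucleus held 6197, 6709, 7250 and 6134 UMIs. Levels are given as CPM, the UMIs of a gene per 1000000 UMIs of all MTAL nuclei of that mouse. They are not corrected for gene length, so levels are compared between mice and classes and not between genes.

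The libraries of batch 4 stood apart from those of batch 3. Mitochondrially encoded transcripts, which lie outside the nucleus, took 0.811%, 1.31%, 5.72% and 8.93% of the MTAL UMIs. The share was higher in the UNx mouse of each batch, and so it was in the cortical TAL, distal, proximal tubule and endothelial nuclei of the same libraries. It took 1.43%, 2.36%, 7.27% and 11.8% in endothelial nuclei, above the MTAL in all 4, and 0.400%, 0.581%, 4.34% and 5.89% in proximal tubule nuclei, below it in all 4. The 16 markers of the proximal tubule, the most abundant segment, summed to 4493, 6335, 14858 and 15589 CPM in MTAL nuclei. The source of this RNA was not measured. Both sums differed between batches and, within batches, between UNx and sham. Nuclei with more than 15000 UMIs numbered 0, 1, 19 and 30, so they too were nearly all in batch 4. Between libraries 18 cell barcodes were shared over all 16500 nuclei, and they touched 1 MTAL nucleus.

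MTAL nuclei carried the TAL markers Slc12a1, Umod and Cldn10. Slc12a1 stood at 19100, 19246, 16042 and 14695 CPM, against 96.9, 132, 2238 and 2191 CPM in endothelial nuclei, which should lack it. After each nucleus was thinned to 2500 UMIs, 100% of MTAL nuclei in every mouse still held a Slc12a1 UMI. Umod stood at 1078, 1158, 1354 and 1390 CPM in MTAL nuclei. That was below the means of 2408 CPM in the class CTAL1 and 2677 CPM in CTAL2, the 2 cortical TAL classes. Endothelial nuclei held 142, 184, 906 and 907 CPM of Umod, so in batch 4 the endothelial level came near to that of MTAL nuclei. Cldn10 stood at 362, 300, 277 and 273 CPM, above the mean of 114 CPM in CTAL1, near the 268 CPM of CTAL2 and below the 447 CPM of proximal tubule nuclei, which use the same gene. Its thinned share was 55.8%, 50.6%, 44.6% and 45.5% of MTAL nuclei, against 10.2%, 13.0%, 29.0% and 25.6% of endothelial nuclei, whose median depth was 3754, 4018, 6363 and 6387 UMIs. Cldn16, the claudin of the cortical part, was low in MTAL nuclei, at 20.2, 32.6, 12.6 and 9.41 CPM, against a mean of 164 CPM in CTAL1. CTAL2 had a mean of 41.0 CPM of Cldn16, so that gene set MTAL apart mainly from CTAL1. Cldn19, the other claudin of the cortical part, did not set the classes apart, at 57.3, 68.8, 57.5 and 44.1 CPM in MTAL nuclei against means of 63.9 CPM in CTAL1 and 56.1 CPM in CTAL2. Summed, Slc12a1, Umod and Cldn10 in MTAL nuclei lay between CTAL1 and CTAL2 in every mouse. A wider list of 10 medullary TAL genes, which holds these 3, summed to 26269, 24576, 21252 and 19221 CPM. It was higher in both cortical classes in every mouse. A list of 9 genes of the cortical part summed to 673, 968, 595 and 495 CPM, below CTAL1 in every mouse. It lay above CTAL2 in batch 3 and below it in batch 4. These levels are a description, since the clusters were made from these same genes.

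**Figure D1:**
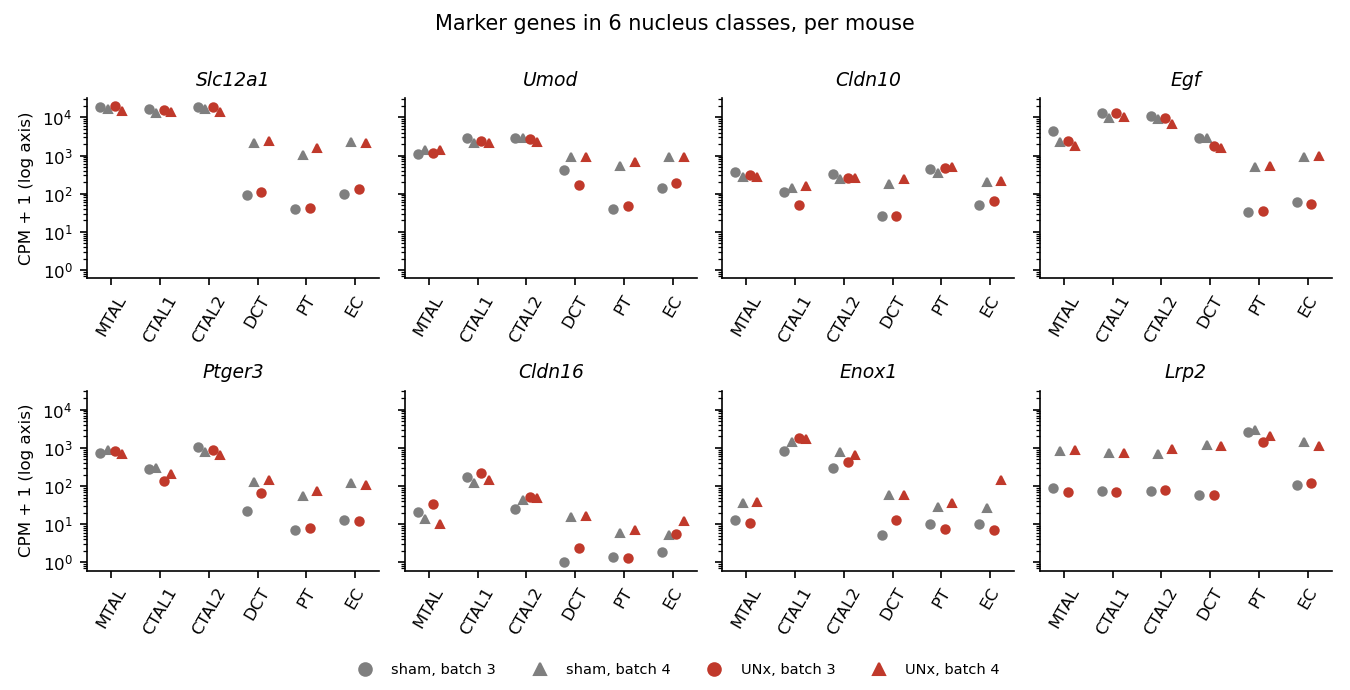
Level of 8 marker genes (CPM plus 1, log axis) in MTAL nuclei, both cortical TAL classes (CTAL1, CTAL2) and distal convoluted tubule (DCT), proximal tubule (PT) and endothelial (EC) nuclei, 1 point per mouse. Slc12a1 lay between 14695 and 19246 CPM in the MTAL nuclei of all mice, and the points of batch 4 (triangles) lie above those of batch 3 (circles) where a class should lack the gene.

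The genes most unequal between MTAL nuclei and the cortical classes were taken only from those with the same direction in all 4 mice. That agreement was thus a condition and not a result. The 10 highest by ratio began with Rgs7, a regulator of G protein signalling, with a mean of 99.9 CPM in MTAL against 9.80 in CTAL1 and 9.25 in CTAL2. Sgcz, which encodes zeta-sarcoglycan of the dystrophin complex, averaged 4221 CPM against 723 and 388. Scel, which encodes sciellin, averaged 191 CPM against 29.4 and 33.7. Ranbp3l averaged 1567 CPM against 400 and 316, but its mean hides a split between batches. In MTAL nuclei it stood at 374, 505, 2412 and 2978 CPM, somewhat higher in UNx than in sham within a batch and several times higher in both mice of batch 4. Spag5, Gpc5, Lama1, Ano4, Filip1l and Prox1 completed the 10, with log2 ratios of mean CPM between 1.60 (Prox1, a homeobox transcription factor) and 2.36 (Spag5).

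The 10 lowest were led by Enox1, with 23.6 CPM in MTAL against 1449 in CTAL1 and 529 in CTAL2, a log2 ratio of -5.33. Nrxn3, a cell adhesion gene, followed with 17.5 CPM against 1215 and 57.8. Col5a2, which encodes a chain of type V collagen, averaged 32.1 CPM against 637 and 191. The others were Thsd4, Cadm2, Rtl4, Sfrp1, Tmem52b, Sulf2 and Cdh6, with log2 ratios from -4.12 to -2.99. Among them Sfrp1 encodes a secreted antagonist of Wnt signalling and Cdh6 a cadherin of the developing nephron. Egf was also lower in the medullary class, with means of 2663 CPM in MTAL, 11467 in CTAL1 and 8920 in CTAL2. No test is given for any of these ratios, because the classes were themselves drawn from the expression of these genes.

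**Figure D2:**
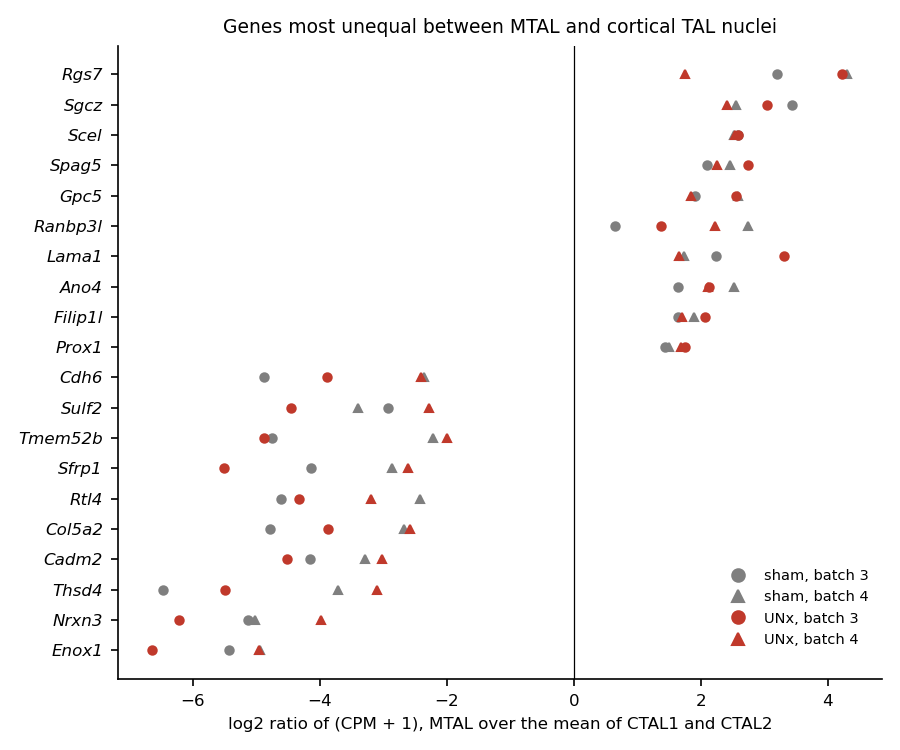
Log2 ratio of CPM (plus 1) in MTAL over the mean of the cortical TAL classes for the 10 genes with the highest and the 10 with the lowest ratio, 1 point per mouse. All points of a gene lie on 1 side of 0, because only such genes were taken. The points of Ranbp3l fall into a lower pair (batch 3) and a higher pair (batch 4).

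MTAL nuclei made up 9.996%, 10.6%, 7.31% and 10.5% of all nuclei, with exact Clopper-Pearson 95% intervals of 9.205% to 10.83%, 9.753% to 11.45%, 6.344% to 8.367% and 9.5% to 11.6%. These intervals cover counting error only. The sham mouse of batch 4 stood low, and the other 3 lay within each other's intervals. The mean share was 10.55% in UNx and 8.652% in sham mice, a difference of 1.90 percentage points, made of 0.584 points in batch 3 and 3.21 points in batch 4. Over TAL nuclei alone the difference was -1.65 points in batch 3 and 8.69 points in batch 4. Shares are described and not tested, because an exact permutation test of 2 against 2 mice cannot give a two-sided p below 0.333.

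Counts summed per mouse over the MTAL nuclei were compared with edgeR's quasi-likelihood test over 13312 genes. Called genes are those whose p, adjusted by the method of Benjamini and Hochberg, was under 0.05. UNx against sham gave 0 calls (0%), with 33 genes at an unadjusted p under 0.05, 17 of them higher and 16 lower. DESeq2 gave 0 calls with 21 such genes and limma voom 0 calls with 35. In each this was fewer than the 5% of genes expected if none differed. These fits ignored the pairing by batch, so differences between the batches counted as error in them. Their 0 calls do not show that UNx left these genes unchanged. Since the labels pair the mice by batch, the fit was repeated with the batch as a replicate block, which gave 5 calls (0.0376%), 4 higher (0.03%) and 1 lower (0.00751%), and 1123 genes at an unadjusted p under 0.05. In that paired fit Hmgcs1, Nudt19, mt-Nd3 and Slco1a1 rose and the unnamed transcript Gm42697 fell. A further paired fit left out the 5% of MTAL nuclei with the most UMIs in each mouse, which is an alternative chosen after the data were seen. It called 143 of 12830 genes (1.11%), 90 higher and 53 lower. With equal numbers of nuclei drawn from each mouse, also chosen after the data were seen, the paired fit called 83 of 11196 genes. These fits had 71 calls in common, all of the same sign, which is 49.7% of the trimmed calls and 85.5% of the others. Both used the same mice and shared many nuclei, so their overlap is not independent evidence. Of the 35 genes followed below that the trimmed paired fit called, 16 were called with equal numbers of nuclei too, namely Hmgcs1, Mylip, Abca1, Cish, Socs2, Bcl6, Dysf, Fstl1, Col5a2, Nmrk1, Nudt19, Slco1a1, mt-Nd3, Gm42697, Hspa5 and Ndrg1. Below, "the paired fit" is the one with all nuclei, and "the trimmed paired fit" is the one without the deepest nuclei. An adjusted p is from edgeR in each case. All MTAL genes named had an adjusted p of 1 in the fit without the block.

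Genes of cholesterol synthesis and its control stood higher in UNx than in sham MTAL nuclei, more so in batch 3 than in batch 4. Cells sense falling sterol in the endoplasmic reticulum. The sensor SCAP then lets the transcription factor SREBP2 (Srebf2) pass to the Golgi to be cut and activated, and the genes it switches on include the enzymes of the mevalonate pathway. Of the 25 genes listed here, 24 could be tested, and all 24 had a positive log2 ratio of UNx to sham in both batches, where 28% of all genes tested did. At least 1.5-fold higher in both batches were 8 of the 24, against 1.58% of all genes, and 0 were as much lower, against 2.04% of all. The median log2 difference was 1.04 over the list and 0.00 over all genes. It was 1.36 in batch 3 and 0.49 in batch 4. The unpaired fit called 0 of the 24, the paired fit 1 and the trimmed paired fit 12, all higher, against 0.701% of all genes called higher in that fit. The paired fit called 2 of 23 with equal numbers of nuclei and 0 of 24 without the mitochondrially encoded genes. Whole kidneys had already been known to show this list higher at 24 h when it was chosen, so its direction here is not independent evidence.

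These directions depend in part on scaling. TMM factors, which set the typical gene to no change, were used for the ratios. On bare library totals 21 of the 24 stood higher in both batches and 6 at least 1.5-fold, where 2793 of all 13312 genes stood higher in both, and with DESeq2's size factors 24 did so. The other 3 were Ebp, Sc5d and Acat2, which on those totals stood slightly lower in the UNx than in the sham mouse of batch 4 (Ebp at 28.4 against 29.9 CPM).

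**Figure D3:**
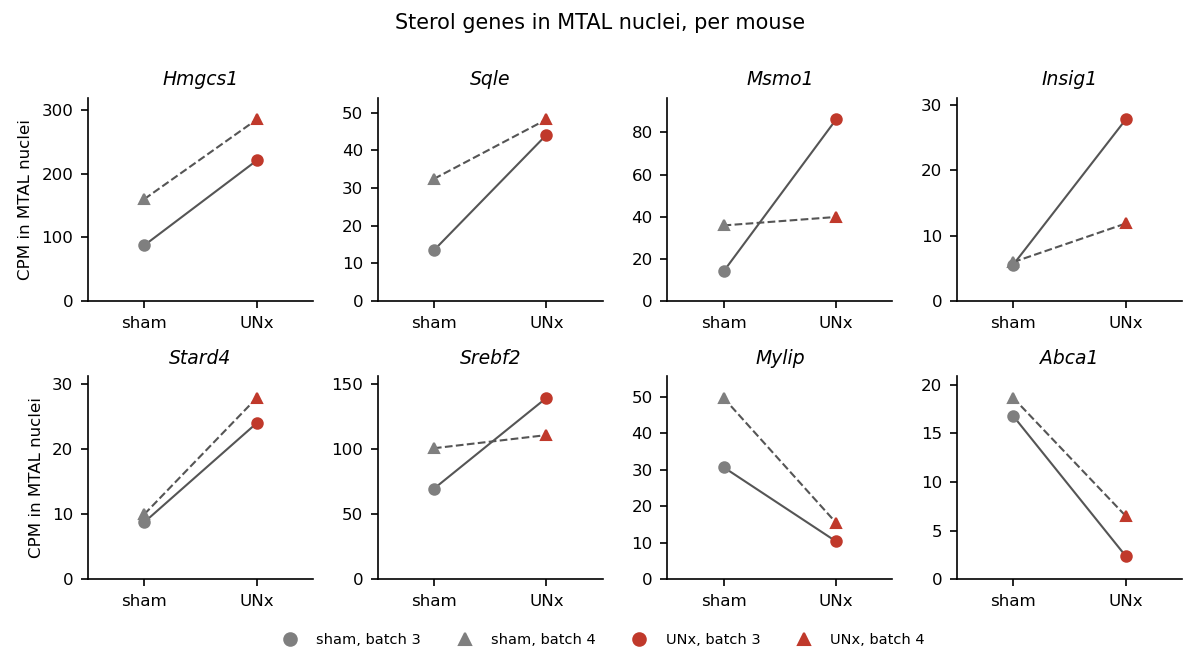
Level of 8 sterol genes in MTAL nuclei (CPM, each axis from 0), with the sham and UNx mouse of a batch joined by a line, solid for batch 3 and dashed for batch 4. Msmo1 has a steep line in batch 3 and a shallow one in batch 4, Hmgcs1 and Stard4 have lines of like slope, and Mylip and Abca1 slope downwards.

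Hmgcs1 encodes the synthase that makes HMG-CoA, an early step of the mevalonate pathway. It stood at 87.4, 221, 160 and 285 CPM. Both UNx mice lay above both sham mice, as 5.87% of all genes did. The log2 difference was 1.10 with a standard error (SE) of 0.39 without the block and 1.15 (SE 0.14) in the paired fit, where its adjusted p was 0.0463 in edgeR. The call was lost without the mitochondrially encoded genes, with an adjusted p of 0.0845. In the trimmed paired fit the adjusted p from edgeR was 4.76e-06. Endothelial nuclei of the same libraries held 40.5, 69.3, 182 and 268 CPM of Hmgcs1. The MTAL level thus lay well above the endothelial one in batch 3 and beside it in batch 4, and the endothelial level was higher in the UNx mouse of each batch too. The part of free RNA in this result was not tested.

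Insig1, whose protein holds SCAP back when sterol is plentiful, stood at 5.56, 27.7, 5.94 and 11.8 CPM. Stard4, a carrier of cholesterol between membranes, stood at 8.77, 24.0, 9.99 and 27.9 CPM. Its steps in the 2 batches were of like size, 1.40 and 1.56 on the log2 scale. Neither passed the paired fit, where edgeR's adjusted p was 0.182 for Insig1 and 0.13 for Stard4. Both rose in the trimmed paired fit, each with an adjusted p of 0.00763 from edgeR, and neither was called with equal numbers of nuclei.

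Enzymes further along the pathway also stood higher in the UNx mouse of each batch. Sqle (squalene epoxidase) stood at 13.5, 44.1, 32.4 and 48.2 CPM, and Msmo1 (a sterol methyl oxidase) at 14.0, 86.1, 35.9 and 39.9 CPM. In each, the step from sham to UNx was larger in batch 3 than in batch 4, and for Msmo1 the UNx mouse of batch 4 lay close to its own sham. Srebf2 itself stood at 69.6, 139, 101 and 111 CPM. Hmgcs1 and these 3 were named after their values were seen. The 3 missed the paired fit and rose in the trimmed paired fit, where edgeR's adjusted p was 0.00372 for Sqle, 0.000465 for Msmo1 and 0.0175 for Srebf2. With equal numbers of nuclei none of the 3 was called, with adjusted p of 0.0912, 0.0666 and 0.434.

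The promoters of Hmgcs1 and Srebf2 are shown because SREBP2 is known to act through sterol regulatory elements near gene starts, and they are the listed genes whose promoters held the element searched. Each is the 250 bases before the gene's start, 5′ to 3′ on the strand of the gene, from RefSeq with the build GRCm38.p6, and the capitals mark the letters TCACCCCA. The first lies at chr13:119690101-119690350 on the plus strand and the second at chr15:82147019-82147268 on the plus strand.
Hmgcs1: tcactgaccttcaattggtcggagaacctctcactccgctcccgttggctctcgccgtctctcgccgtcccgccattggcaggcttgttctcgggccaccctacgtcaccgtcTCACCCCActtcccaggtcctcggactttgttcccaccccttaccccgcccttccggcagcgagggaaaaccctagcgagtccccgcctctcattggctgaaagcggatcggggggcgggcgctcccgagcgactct
Srebf2: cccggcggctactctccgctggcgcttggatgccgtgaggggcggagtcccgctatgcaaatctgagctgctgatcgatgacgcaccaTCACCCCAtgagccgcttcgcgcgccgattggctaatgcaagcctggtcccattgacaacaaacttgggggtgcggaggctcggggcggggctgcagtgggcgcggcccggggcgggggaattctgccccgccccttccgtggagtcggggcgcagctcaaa
The match lay 137 to 130 bases before the start of Hmgcs1 and 162 to 155 bases before that of Srebf2. The 300-base windows of the RefSeq table, which reach 50 bases past the start, held 20 promoters of 17 of the 24 tested genes. On both strands TCACCCCA was in 2 of these 20 (10.0%) and in 1.56% of all 32851 promoters. The related form TCACNCCAC, which overlaps it in Hmgcs1, was in 1 of 20 (5.0%) and in 1.24% of all. CCAAT, the letters bound by NF-Y, was in 16 of 20 (80.0%) and in 37.4% of all. A match is a description of letters and does not show that a factor binds there.

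Nucleus by nucleus, the difference in batch 3 was spread over many cells. With each nucleus thinned to 2500 UMIs, at least 1 UMI of the 25 cholesterol genes was found in 64.2%, 88.8%, 76.7% and 87.9% of MTAL nuclei. The means were 1.06, 3.02, 1.68 and 2.58 UMIs a nucleus. Endothelial nuclei thinned alike gave 58.0%, 62.0%, 84.1% and 86.4%, so in batch 4 the MTAL share was close to the endothelial one. Endothelial cells may use these genes themselves. Without thinning, the MTAL shares were 88.2%, 98.9%, 97.4% and 98.6%. For Hmgcs1 the thinned shares were 19.9%, 38.7%, 26.9% and 44.9% of MTAL nuclei, and 36.9%, 64.6%, 64.3% and 74.9% without thinning. In endothelial nuclei the thinned shares were 9.46%, 16.0%, 30.3% and 38.2%. The Hmgcs1 share was higher in the UNx than in the sham mouse of each batch in both classes. In batch 3 it was well above the endothelial share in both mice, and in batch 4 the sham mouse lay below its endothelial share and the UNx mouse slightly above.

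The list was followed in other classes of the same mice, with no test of the list itself between classes. In the paired fits edgeR called 62 of 10282 genes in CTAL1 (0.603%; 0.311% higher and 0.292% lower), 5 of 11609 in CTAL2 (0.0431%; 0.0258% and 0.0172%) and 437 of 17281 in proximal tubule nuclei (2.53%; 1.02% and 1.51%). The list's median log2 difference in these fits was 0.40 in CTAL1, 0.62 in CTAL2 and 0.11 in proximal tubule nuclei. Hmgcs1 also rose in CTAL2, by 1.13 with an adjusted p of 0.0325 from edgeR. For Hmgcs1 the UNx effect was 0.26 (SE 0.16) larger on the log2 scale in MTAL than in the pooled cortical TAL, and for Insig1 1.30 (SE 0.48), both with an adjusted p of 1 in edgeR's interaction test. A larger effect in the MTAL than in the cortical limb was therefore not called for either.

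The list was also measured in whole kidneys of other mice. In bulk, edgeR called 27.3% of 14104 genes at 24 h, 14.2% higher and 13.1% lower. Of the 24 cholesterol genes, 19 were called higher. Bulk Hmgcs1 had a lowest, median and highest value of 528, 588 and 614 CPM in sham kidneys and 719, 815 and 856 CPM in UNx kidneys. The groups did not overlap, and the log2 difference was 0.48 (SE 0.06), with an adjusted p of 0.000109 from edgeR. In bulk tissue, more cells of a type and more RNA per cell cannot be told apart.

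**Figure D4:**
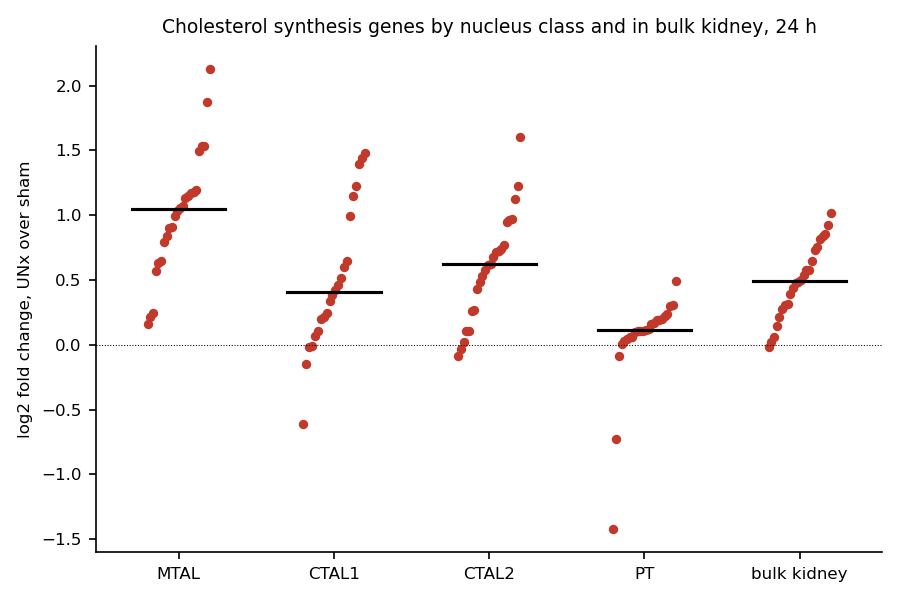
Log2 difference between UNx and sham of each cholesterol gene in MTAL, CTAL1, CTAL2 and proximal tubule (PT) nuclei, from the paired fit of each class, and in bulk kidney at 24 h. Points are genes in order of size and the bar is their median, which is highest in MTAL nuclei and lowest in PT.

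Of genes known to answer to sterol surplus, Mylip and Abca1 stood lower, and no list of such genes was examined. Mylip encodes a ubiquitin ligase that acts in cholesterol balance, and Abca1 the transporter that exports cholesterol. Both are known targets of the liver X receptors, which sense oxysterols. Mylip stood at 30.7, 10.4, 49.7 and 15.5 CPM, with a step of -1.48 in batch 3 and -1.55 in batch 4. Abca1, named after its values were seen, stood at 16.8, 2.40, 18.7 and 6.52 CPM, from 57, 9, 35 and 19 UMIs. In both genes the 2 UNx mice lay below the 2 sham mice, which 10.5% of all genes did. The paired fit gave an adjusted p of 0.093 for Mylip and 0.182 for Abca1 in edgeR. In the trimmed paired fit both fell, with adjusted p of 0.00435 and 0.00645. In bulk, Mylip fell from a median of 37.8 to 23.7 CPM and Abca1 from 28.3 to 11.9 CPM, with edgeR adjusted p of 0.003 and 0.00198.

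Cytokine and growth hormone signalling through STAT5 is known to switch on its own inhibitors Cish and Socs2 and to switch off Bcl6, a transcriptional repressor. Cish stood at 58.2, 36.0, 58.1 and 17.4 CPM in MTAL nuclei, and Socs2 at 20.5, 11.7, 30.8 and 9.93 CPM. Both UNx mice lay below both sham mice for each. Bcl6 stood at 21.2, 70.1, 36.3 and 54.3 CPM, with both UNx mice above both sham mice. In endothelial nuclei Bcl6 stood at 28.6, 51.5, 53.3 and 64.8 CPM, which the MTAL level exceeded only in the UNx mouse of batch 3. The log2 differences without the block were -1.07 (SE 0.39) for Cish, -1.16 (SE 0.39) for Socs2 and 1.18 (SE 0.37) for Bcl6. None passed the paired fit, where edgeR's adjusted p was 0.227, 0.311 and 0.182. In the trimmed paired fit Cish and Socs2 fell, with adjusted p of 0.00801 and 0.0353, and Bcl6 rose, with an adjusted p of 0.000108. These were the 3 called of the 12 tested genes of the list, where that fit called 1.11% of all genes.

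Other tubule classes showed calls for these genes as well. In proximal tubule nuclei Cish stood at 61.8, 0.777, 53.3 and 3.86 CPM, and it fell by 4.82 on the log2 scale in the paired fit of that class, with an adjusted p of 0.00408 from edgeR. The effect on Cish was 3.83 (SE 1.16) less negative in MTAL than in proximal tubule nuclei, with an unadjusted p of 0.0268 and an adjusted p of 1 in edgeR's interaction test. Bcl6 rose in the paired fits of CTAL1 and CTAL2, with log2 differences of 1.53 and 2.38 and adjusted p of 0.0153 and 0.0311 from edgeR. Socs2 fell in CTAL1 by 1.85, with an adjusted p of 0.00368. Bulk kidneys had the opposite sign for each of the 3, though for Socs2 the bulk difference was smaller than its SE. Bulk Cish ran from 6.98 through 18.9 to 35.3 CPM in sham and from 28.1 through 37.1 to 44.5 CPM in UNx kidneys. It rose by 0.84 (SE 0.27), with an adjusted p of 0.0325 from edgeR. Bulk Bcl6 ran from 10.2 through 55.6 to 92.9 CPM in sham and from 7.71 through 8.58 to 44.6 CPM in UNx kidneys. Its fall of 1.72 on the log2 scale had an adjusted p of 0.0356, which became 0.0657 with the replicate number as a block. All these bulk kidneys were in batch 1, so that number does not pair them by batch. Bulk Socs2 differed by 0.11 (SE 0.40). The bulk groups overlapped in all 3 genes, and the difference in sign between bulk tissue and nuclei was not tested.

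**Figure D5:**
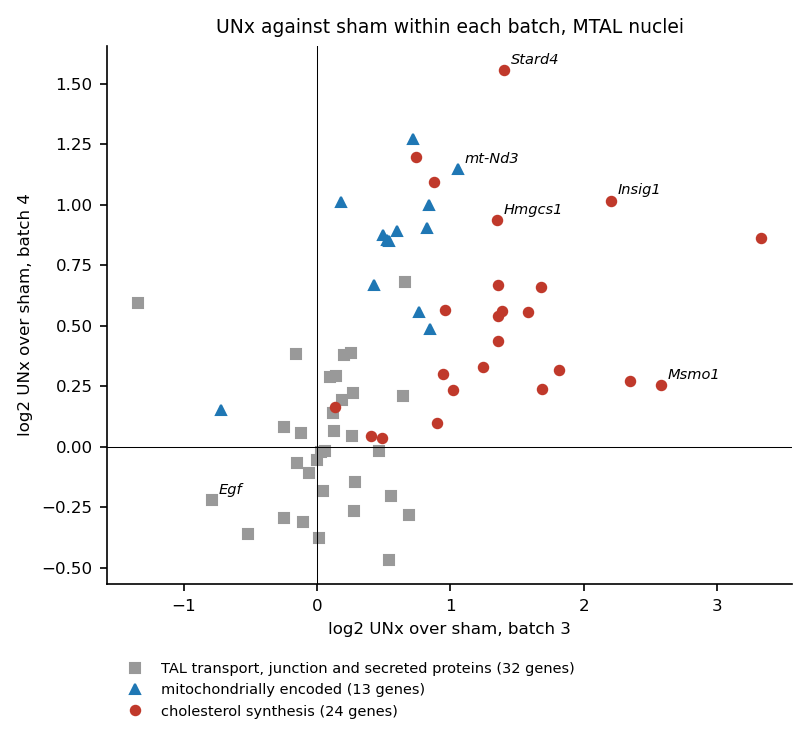
Log2 ratio of UNx to sham in MTAL nuclei, batch 3 on the horizontal and batch 4 on the vertical axis, 1 point per gene of the cholesterol list (circles), of the 13 mitochondrially encoded genes (triangles) and of the transport, junction and secreted proteins of the TAL (squares). All 24 cholesterol genes and 12 of the 13 mitochondrial ones lie above 0 on both axes, and the squares lie on both sides.

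None of the 14 listed genes of salt transport was called in the paired fit, which called 0.0376% of all genes. None was called in the trimmed paired fit either, which called 1.11%. At these shares 0 calls among so few genes is near what all genes gave. Of the 14, 6 stood higher and 1 lower in both batches, where 28% and 26.4% of all genes did. On bare library totals 4 stood higher and 3 lower. The median log2 difference of the 14 was 0.11. Slc12a1 differed by 0.01 (SE 0.42) without the block and 0.00 (SE 0.16) in the paired fit. Umod differed by 0.13 (SE 0.28) and Cldn10 by -0.09 (SE 0.22). The member with the lowest p was Kcnj10, a potassium channel of the blood side, at 34.2, 53.6, 22.1 and 33.6 CPM, with an edgeR adjusted p of 0.39 in the paired fit. In bulk, Slc12a1 differed by 0.02 with an adjusted p of 0.91 and Umod by 0.07 with an adjusted p of 0.674, while Cldn10 fell by 0.22 with an adjusted p of 0.0131, all from edgeR. None of the 9 tested tight junction genes and none of the 16 genes of WNK and SPAK kinase control passed the trimmed paired fit. That fit called 1.11% of all genes, so these counts too are near the share over all genes.

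Among the proteins that the TAL secretes, Egf stood at 4267, 2441, 2194 and 1750 CPM. Both UNx mice lay below their own sham mates, but the UNx mouse of batch 3 lay above the sham mouse of batch 4. The log2 difference was -0.57 (SE 0.42) without the block. Its adjusted p in edgeR was 0.449 in the paired fit and 0.0254 in the trimmed paired fit, where it fell by 0.51. With equal numbers of nuclei the paired fit did not call it, at 0.119. The difference without the block was -0.03 without the sham mouse of batch 3 and -0.96 without that of batch 4. In those fits the sham group came from 1 batch only, so differences between the batches entered both values. Spp1, which encodes osteopontin, stood at 256, 177, 286 and 207 CPM and passed no fit. The effect on Egf in MTAL was 0.40 (SE 0.15) more negative than in the cortical TAL, with an unadjusted p of 0.0158 and an adjusted p of 1 in edgeR.

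Of the 16 transcription factors of the TAL list, 8 stood higher and 4 lower in both batches, where 28% and 26.4% of all genes did. In bulk 2 of the 16 were called higher and 8 lower, where 14.2% and 13.1% of all genes were. The median log2 difference of the 16 in bulk was -0.22. Tfcp2l1, a factor of the distal nephron and collecting duct, stood at 228, 317, 201 and 270 CPM, with both UNx mice above both sham mice. It rose in the trimmed paired fit, by 0.52 with an adjusted p of 0.0361 from edgeR, but was not called with equal numbers of nuclei, at 0.15, and it rose in bulk by 0.38 with an adjusted p of 0.00191. The other called member was Pax2, at 325, 469, 790 and 1033 CPM, where the batches differed more than the groups.

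Outside the lists, 6 genes were taken in each direction by the lowest p among those with a mean of at least 20 CPM and no overlap between the groups. Dysf, which encodes dysferlin, a protein of membrane repair, stood at 58.2, 116, 60.6 and 96.6 CPM. Its log2 difference was 0.90 (SE 0.21) without the block, and the steps were 1.00 in batch 3 and 0.78 in batch 4. Fstl1, a secreted follistatin-like protein, stood at 20.3, 43.2, 20.7 and 40.2 CPM, with steps of 1.07 in batch 3 and 1.04 in batch 4 on the log2 scale. Pank3, a pantothenate kinase of coenzyme A synthesis, stood at 24.3, 44.0, 23.5 and 48.6 CPM. Noct (nocturnin) and Gpr39, a zinc-sensing receptor, were the others along with Bcl6, with log2 differences of 0.77 (SE 0.25) and 1.14 (SE 0.37). For the first 3 the sham mice of the 2 batches lay close together. None of these passed the paired fit, where the lowest adjusted p was 0.103, for Dysf. All of them rose in the trimmed paired fit, with edgeR adjusted p from 0.000108 for Bcl6 to 0.0292 for Fstl1. In bulk Pank3 rose by 0.49 with an adjusted p of 0.000733, and Dysf differed by 0.28 with an adjusted p of 0.08.

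In the other direction Col5a2 stood at 32.0, 13.1, 68.6 and 14.7 CPM, a log2 difference of -1.79 (SE 0.48). It was far more abundant in the cortical classes, and it fell there too, by 2.17 in CTAL1 with an adjusted p of 2.07e-09 and by 2.02 in CTAL2 with an adjusted p of 0.00668, both from edgeR's paired fits. In bulk Col5a2 differed by 0.17 with an adjusted p of 0.198. Nmrk1, a kinase that makes NAD from nicotinamide riboside, stood at 105, 65.8, 156 and 56.0 CPM. Ttc26, which encodes a part of the transport system of the cilium, stood at 35.2, 17.8, 32.7 and 15.7 CPM. Smim5 differed by -1.29 (SE 0.41) and Ypel3 by -0.71 (SE 0.24). Col5a2, Mylip, Nmrk1, Ttc26 and Smim5 fell in the trimmed paired fit, with edgeR adjusted p from 0.000286 to 0.0192. Cish, Noct, Ttc26 and Smim5 stood above their endothelial level in every mouse, while Dysf, Fstl1, Mylip, Socs2 and Col5a2, which endothelial nuclei may use themselves, stood below it. Ypel3 missed the trimmed paired fit at 0.0667, while in bulk it fell by 0.85 with an adjusted p of 8.48e-06.

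Nudt19, which encodes a peroxisomal coenzyme A hydrolase abundant in kidney, stood at 47.7, 119, 134 and 303 CPM in MTAL nuclei. It rose by 1.31 (SE 0.13) in the paired fit, with an adjusted p of 0.0335 from edgeR. It rose also in the paired fits of CTAL1, by 0.91 with an adjusted p of 0.026, and of proximal tubule, by 0.80 with an adjusted p of 0.0286. In bulk the rise was 0.70 with an adjusted p of 0.00266. Slco1a1, an organic anion transporter of the proximal tubule, stood at 4.02, 20.0, 18.3 and 66.2 CPM in MTAL nuclei and at 12.0, 27.2, 28.0 and 69.9 CPM in endothelial nuclei. It rose by 2.08 (SE 0.24) in the paired MTAL fit, with an adjusted p of 0.0395 from edgeR, and by 1.56 in proximal tubule nuclei, with an adjusted p of 0.00402. Its level in MTAL nuclei was below that of endothelial nuclei in every mouse, and the part of free RNA in its call was not tested. Nudt19 too stood below its endothelial level in every mouse, which was 73.4, 153, 193 and 306 CPM. Gm42697, by contrast, stood at 284, 105, 26.1 and 10.1 CPM in MTAL nuclei and at 0.879, 0.401, 4.1 and 5.64 CPM in endothelial nuclei.

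Of the 13 mitochondrially encoded genes, 12 stood higher in UNx in both batches and 5 at least 1.5-fold, where 28% and 1.58% of all genes did. The paired fit called 1, mt-Nd3 of respiratory complex I, at 62.9, 130, 400 and 827 CPM with an adjusted p of 0.0335 from edgeR. The trimmed paired fit called 11, all higher, where it called 0.701% of all genes higher. In endothelial nuclei mt-Nd3 stood higher than in MTAL nuclei in all 4 mice. The summed share of these genes moved in the same direction in the other classes of the same libraries, and the part of free RNA in this result was not tested. With the 13 left out of the counts the paired fit called 0 genes. In bulk 1 of the 13 was called higher and 2 lower, where 14.2% and 13.1% of all genes were. Genes at least 2-fold higher in proximal tubule than in MTAL nuclei numbered 1352 of the 13312 tested, and they made up 26 of the 90 genes called higher and 8 of the 53 called lower in the trimmed paired fit. The part of proximal tubule RNA in those calls was not tested. Genes at least 2-fold higher in MTAL, 1974 in number, made up 12 of the 90 and 25 of the 53.

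The remaining lists held few called genes. The nuclear-encoded respiratory chain (45 tested), fatty acid oxidation (24), glycolysis (16), DNA replication (15), the circadian clock (16) and insulin and IGF signalling (25) had 0 called members in the paired and the trimmed paired fits. These fits called 0.0376% and 1.11% of all genes, so 0 calls in lists of this size is near those shares. Of the 16 glycolysis genes 13 stood higher in both batches, and 11 did so on bare library totals. Of the 46 cytosolic ribosomal protein genes 31 stood higher in both batches, against 28% of all genes. On bare library totals 24 of them and 2793 of all 13312 genes did so. In the trimmed paired fit Hspa5, the chaperone BiP of the endoplasmic reticulum, rose, at 39.3, 65.3, 153 and 265 CPM with an adjusted p of 0.00277 from edgeR, the only one of 18 genes of the unfolded protein response. Errfi1, an inhibitor of the EGF receptor, rose with an adjusted p of 0.000286, but it was not called with equal numbers of nuclei, at 0.645. Klf9, a glucocorticoid target, fell, at 176, 79.6, 188 and 147 CPM with an adjusted p of 0.0236. Of the 13 tested genes of the glucocorticoid list, the trimmed paired fit called 1 higher and 1 lower. Over all genes it called 0.701% higher and 0.413% lower. In both batches 4 of the 13 stood higher and 4 lower, where 28% and 26.4% of all genes did. Gabarapl1, of the autophagosome, fell with an adjusted p of 0.0227, and in bulk by 0.75 with an adjusted p of 9.15e-06. Single members were called also for TAL receptors (Pth1r, higher), hypoxia (Ndrg1, lower), ribosome assembly (Nhp2, higher) and calcium and magnesium handling (Slc8a1, higher). The trimmed paired fit called 1.11% of all genes. The paired fit with equal numbers of nuclei called Hspa5 and Ndrg1 too. Besides Errfi1 it did not call Klf9, Gabarapl1, Pth1r, Nhp2 and Slc8a1, with edgeR adjusted p of 0.0508, 0.346, 0.179, 0.494 and 0.54. Of these, Pth1r, Ndrg1 and Nhp2 stood below their endothelial level in all 4 mice, Errfi1 and Slc8a1 in both mice of batch 4, and Hspa5 in every mouse but the UNx mouse of batch 4.

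Whether UNx acted otherwise on the MTAL than on the cortical TAL was tested as an interaction within the 4 mice, and edgeR called 0 of 13897 genes (0%), with 459 at an unadjusted p under 0.05. The lowest p of a more positive effect in MTAL was that of Dnah12, a dynein gene, with a difference of 1.27 and an unadjusted p of 3.25e-05. The lowest p of a more negative effect was that of Cables1, with a difference of -1.78 and an unadjusted p of 0.000188. Defb1, which encodes the antimicrobial peptide beta-defensin 1, stood at 221, 159, 194 and 95.8 CPM in MTAL nuclei, and its effect was 0.59 more negative there. All 3 had an adjusted p above the threshold in edgeR. The count of calls was 3 without the sham mouse of batch 4, 12 without the UNx mouse of batch 3, 26 without the UNx mouse of batch 4 and 13 with no filter on low counts. Against proximal tubule nuclei 0 of 17039 genes (0%) were called, with 159 at an unadjusted p under 0.05. Both comparisons share the same 4 mice, and a difference that misses the threshold does not show that the segments responded alike.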

How the data were processed

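The authors deposited estimated UMI counts per gene and nucleus and estimated counts per gene and bulk kidney, both expected counts that need not be whole and were not normalized. The submitters' processing notes name alevin, Seurat and mm10 for the nuclei and FastQC 0.11.8, Salmon 1.5.0, R 4.10 and GRCm39 for the bulk kidneys, with no settings. Of the nucleus values above 0, 13.8% were not whole within 0.001. The lowest nucleus total was 1755 UMIs, so a filter had been applied. Neither that filter nor a treatment of doublets is stated in the labels, and doublets were not called anew. Bulk libraries held 14.87 to 24.11 M (times 1000000) counts.

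Classes are the authors' deposited annotation. Counts were summed per mouse and class, rounded, and tested with edgeR 4.0.16 in R 4.3.3 (filterByExpr, TMM factors, quasi-likelihood test, two-sided, Benjamini-Hochberg adjusted p under 0.05). DESeq2 1.42.0 and limma 3.58.1 were alternatives. The standard error is the log2 fold change over the square root of F. Within-batch log2 ratios used TMM factors and a prior count of 2, whereas printed CPM used library totals. No source says that the mice of a group came from separate litters or operations. The replicate numbers of the nucleus samples pair the mice, since the labels put number 1 of both groups in batch 3 and number 2 in batch 4. Deviations from the group means correlated at 0.811 over 12778 genes. Thinning drew 2500 UMIs per nucleus with a fixed seed, leaving out shallower nuclei (up to 25 and 5 endothelial nuclei of sham and UNx in batch 3, no MTAL nucleus). The script for the gene tests was tested on simulated data.

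Named genes were the 6 with the lowest p in each direction without overlap between groups at 20 CPM or more, the class markers, up to 3 per list with the lowest p, the 10 most unequal to the cortical classes in each direction at 50 CPM or more, and the lowest p of the interaction. The genes most unequal to the cortical classes also had to have the same direction in every mouse. Genes called only in a paired fit were named after their values were seen. Some genes under these rules are not reported here. The members, the 28 gene lists and the marker lists were chosen with earlier results of these data known. Bulk gene identifiers were paired with symbols for 14088 of 14104 tested genes, and 11468 of the genes tested in MTAL nuclei were matched.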

Additional observations from a re-analysis of the deposited data

Results flagged for a closer look

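In the bulk kidneys at 24 h, 6 values lay far from the others of their group of 6, by Dixon's gap criterion at 95%, out of 44 groups examined for the genes named above; chance flags about 1 group in 20. They do not come from the MTAL nuclei, where groups of 2 mice cannot be examined this way. Abca1 was 27.6 CPM in 1 UNx kidney and at most 12.0 in the others. Bcl6 was 44.6 CPM in 1 UNx kidney and at most 20.0 in the others. Insig1 was 41.0 CPM in 1 sham kidney and at least 49.4 in the others, and 113.8 CPM in 1 UNx kidney and at most 87.0 in the others. Gabarapl1 was 659.1 CPM in 1 sham kidney and at least 727.3 in the others. Pank3 was 84.7 CPM in 1 UNx kidney and at least 102.7 in the others.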

How the results depend on the processing

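The count of genes called in MTAL nuclei was 0 in the fit without the block and 0 with DESeq2 size factors, the DESeq2 Wald test, limma voom, either other filter, no mitochondrial genes, fewer nuclei or without any 1 mouse (0 to 0). None of these fits had the block, so differences between the batches were not taken out in any of them. With the replicate block (the labelled pairing by batch) the count of genes called was 5, with the block and DESeq2 size factors 14, with the block and equal numbers of nuclei 83, and with the block and without the deepest nuclei 143. With the block and without mitochondrial genes it was 0. The last 4 were chosen after the data were seen, and the cause of the spread was not tested. The difference of the effect between MTAL and cortical TAL gave 0 calls, 13 with no filter on low counts, and 0 to 26 without 1 mouse (3 without sham replicate 2, 12 without UNx replicate 1, 26 without UNx replicate 2); the cause was not tested. The bulk count of 3852 was 3186 with the replicate block, whose numbers do not pair the bulk mice by batch. The MTAL share difference of 1.90 points became 3.52 points over TAL nuclei and 0.554 to 3.242 points without 1 mouse.

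The MTAL fits without 1 mouse had no block, so 1 group then came from 1 batch only. Differences between the batches thus entered these values, and their part was not tested. Without 1 mouse, 11 of the 52 values followed for single genes changed sign. Their log2 differences ranged over -0.263 to 0.0925 for Cldn10, -0.148 to 0.138 for Slc12a1, -0.0683 to 0.322 for Umod, -1.24 to 2.32 for Errfi1, -3.83 to 1.16 for Gm42697, -0.558 to 2.18 for Hspa5, -1.90 to 0.417 for Ndrg1, -0.253 to 1.30 for Pax2, -1.40 to 3.04 for Pth1r, -0.671 to 1.84 for Slc8a1 and -0.844 to 3.04 for mt-Nd3. Slc12a1, at 0.01, also turned to -0.0021, -0.0025, -0.0283, -0.0511, -0.0307, -0.0048 and -0.0016 with at least 10 counts a mouse, without mitochondrial genes, without the deepest nuclei, without the nuclei richest in proximal tubule markers and under the block without the deepest nuclei, without mitochondrial genes or with size factors. Of 831 alternative values 732 kept their direction and side of the threshold, 76 newly passed it and 23 changed sign. No followed value passed the threshold in the main fits, so none could be lost. Many of the genes were named because a paired fit called them, so the 76 follow in part from that choice. Over the cholesterol genes, the log2 difference without the block stayed positive for 22 of 25 without sham replicate 1, 25 of 25 without sham replicate 2, 24 of 24 without UNx replicate 1 and 20 of 24 without UNx replicate 2. With 2 mice a group and 193 MTAL nuclei in the smallest library, depth limits most of all the genes under 20 CPM.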
